A study of Mus musculus with 4 samples.

Results

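Nuclei of inguinal white adipose tissue that carried RNA of collagen-making progenitors, but neither the Pi16 program nor an adipocyte program, were picked out by the genes detected in each nucleus. A nucleus was taken when it held at least 1 UMI (a counted RNA molecule) of at least 3 of 10 progenitor genes (Lama2, Col1a1, Col1a2, Col3a1, Dcn, Cdh11, Slit2, Tmeff2, Pdgfra and Ddr2), of fewer than 2 of 8 Pi16-type genes (Pi16, Fndc1, Lvrn, Gfpt2, Opcml, Sema3c, Tmem100 and Pcolce2) and of fewer than 4 of 9 adipocyte genes (Adipoq, Plin1, Cidec, Acsl1, Ghr, Pde3b, Fam13a, Acaca and Gpam). This gate held 2363 of 50067 nuclei, or 4.72%. Below, they are called the gated nuclei. The levels of these 27 genes chose the nuclei and are given as a description, with no test.

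The tissue came from mice of strain background C57BL/6N that were 6 months old, with 2 libraries labelled WT and 2 labelled PTRF knockout. PTRF is an older name of Cavin1. The labels name separate mice for the libraries and give no further allele, treatment, promoter or Cre driver for either group. Nuclei were isolated with a Singleron kit and their polyadenylated RNA was counted by UMI. Values are given throughout in the order labelled WT 1, labelled WT 2, labelled knockout 1, labelled knockout 2, and a difference is labelled knockout minus labelled WT. With 2 libraries a group, p-values of the gene tests set a difference against the spread between libraries, estimated partly across genes. They speak for these 4 libraries only.

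Fibroblast-like progenitors of fat depots lay down the collagen and proteoglycan scaffold around adipocytes and supply new adipocytes. In mouse adipose tissue, cells with Pi16 and Dpp4 lie in the connective tissue between lobules and are placed early in the lineage, and cells without them include more committed preadipocytes and regulatory progenitors. Cavin1 coats the inner face of caveolae, the small flask-shaped pits of the plasma membrane that are abundant in adipocytes and their progenitors, and its loss causes lipodystrophy in mice and people.

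The targeted gene went against the labels. The names of the deposited files of all 4 libraries also give the other genotype than the labels do. In the gated nuclei, Cavin1 (chromosome 11, positions 100956733 to 100970887, minus strand, GRCm38) gave 2, 2, 34 and 91 UMIs. Its level on the TMM-normalised scale was 2.52, 5.6, 60.2 and 49.3 CPM, which are UMIs scaled to a common library total. Both libraries labelled knockout stood above both labelled WT, with a log2 difference of 3.88 ± 0.64 (SE, n = 2 against 2 libraries) and an adjusted p of 0.176 in edgeR's quasi-likelihood test. The same test called 0.156% of genes in the Pi16-type gate and 0.0573% in the adipocyte gate. Cavin1 was among them in the Pi16-type gate (6.31 ± 0.87, adjusted p = 0.0169) and in the adipocyte gate (4.95 ± 0.50, adjusted p = 6.97e-04). Every group below is therefore named as the library labelled so, and each direction rests on labels that this gene contradicts.

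The libraries differed in depth, and the gate follows depth because it counts detected genes. Kept nuclei per library numbered 15528, 6664, 11988 and 15887. The gated nuclei numbered 689, 296, 530 and 848, with a median of 1072, 1098.5, 967 and 1794.5 UMIs and 646, 638, 586.5 and 1007 genes. The library labelled knockout 2 was thus the deepest. No barcode occurred in the gated nuclei of more than 1 library, and 41 of the 2363 gated barcodes were also kept in another library. Depth, and the number of nuclei with markers of other cell types, move with the library labelled knockout 2, and their part in the results was not tested beyond the values given beside them.

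The shares of gated nuclei with each gate gene are a description, since the rule chose nuclei by these genes. Lama2, the alpha chain of laminin in basement membranes, was found in 79.8% of gated nuclei, and Dcn, the collagen-binding proteoglycan decorin, in 76.1%. Tmeff2, a transmembrane protein with follistatin-like domains, was found in 58.7%, and Ddr2, a collagen receptor, in 49.0%. The fibrillar collagen genes Col3a1, Col1a2 and Col1a1 were found in 42.9%, 40.2% and 29.5%. Cdh11, a mesenchymal cadherin, was found in 36.7%, and Pdgfra, the receptor that marks adipose progenitors, in 36.4%.

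Free RNA can put single UMIs into nuclei of other types, and its amount was not measured. The same shares were read in 4609 nuclei that no gate held. These had at least 3 B cell or at least 3 T and NK cell markers. Leaving out nuclei that a gate held by itself lowers the shares of progenitor genes there. Of the 4609 nuclei, 2558 came from the library labelled knockout 2, against 848 of the 2363 gated nuclei. In the lymphocyte-marker nuclei Lama2 was found in 9.09%, Dcn in 5.99%, Tmeff2 in 5.29%, Col1a1 in 1.97% and Pdgfra in 1.13%. Their median was 1238 UMIs, against 1180 in the gated nuclei. After thinning each nucleus to 500 UMIs, Lama2 was found in 63.0% of gated and 3.95% of lymphocyte-marker nuclei, and Dcn in 55.4% and 2.56%. The rule chose the gated nuclei by these genes, so the gap is a description. Of genes that it did not use, Slit3 stood at 3284 CPM pooled over the gated and 171 CPM over the lymphocyte-marker nuclei, and Col5a2 at 903 and 22.3 CPM. Of the adipocyte genes that the gate allowed, Ghr, the growth hormone receptor, was found in 58.1% of gated and 43.9% of lymphocyte-marker nuclei, and Pde3b in 14.8% and 32.3%.

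**Figure D1:**
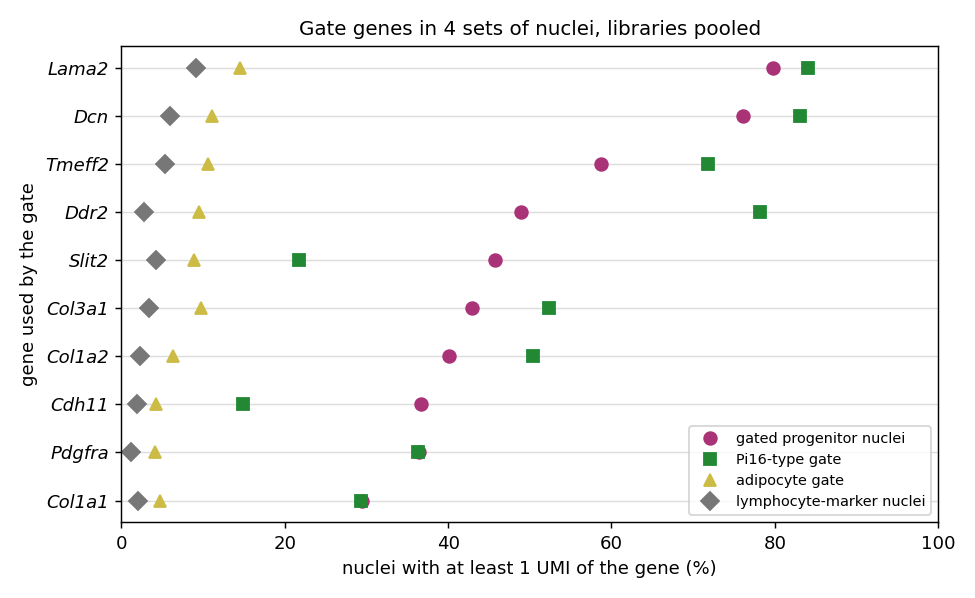
Share of nuclei with at least 1 UMI (horizontal axis, percent) of each of the 10 progenitor genes that the gate used (vertical axis), pooled over the 4 libraries. Circles are the gated nuclei, squares the Pi16-type gate, triangles the adipocyte gate and diamonds lymphocyte-marker nuclei. Cdh11 stood at 36.7% in the gated nuclei and 14.9% in the Pi16-type gate, and Lama2 at 79.8% against 9.09% in lymphocyte-marker nuclei.

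The Pi16-type gate (at least 3 progenitor genes, at least 2 Pi16-type genes and fewer than 4 adipocyte genes) was the most like set, with 1376 nuclei. Cdh11 was found in 36.7% of gated nuclei and 14.9% of Pi16-type nuclei, and Slit2, a secreted guidance cue, in 45.7% and 21.8%. The order was the other way for Ddr2, at 49.0% and 78.2%, although Pi16-type nuclei were deeper, at a median of 1649 UMIs. Both sets were cut by neighbouring rules, and these shares are therefore a description.

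The collagen genes used by the gate differed in level between libraries. Levels in this paragraph, and all levels pooled over libraries, are CPM without TMM. Summed over gated nuclei, Col1a1 stood at 249, 341, 459 and 619 CPM and Col1a2 at 366, 399, 482 and 1010.1 CPM. Col3a1 stood at 383, 714, 662 and 1166 CPM, and Lama2 at 3115, 3178, 2670.0 and 3671 CPM. The library labelled knockout 2 had the highest level of each of these 4 genes. Tmeff2 was highest in the library labelled WT 1, at 2872, 1571, 1303 and 1425 CPM. Fam13a, an adipocyte gene that the gate allows, stood at 1901, 542, 165 and 356 CPM.

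Nuclei near the progenitor-gene threshold had lower Ebf1 and Slit3, which the gate did not use. Exactly 3 progenitor genes were found in 705 gated nuclei, with 1783 CPM of Ebf1, a transcription factor of adipose progenitors, and 1725 CPM of Slit3, a secreted guidance cue. The 1984 nuclei just outside, with exactly 2, held 1077 CPM of Ebf1 and 632 CPM of Slit3. Of the gated nuclei, 830 held 1 Pi16-type gene, and 377 nuclei were just outside with 2. Here Ebf1 and Slit3 were not lower near the threshold, at 3138 and 3612 CPM with 1 such gene and 2899 and 3080.3 CPM with none. At the adipocyte threshold, 467 gated nuclei held 3 adipocyte genes, and 231 nuclei with 4 were left out. The 309 gated nuclei with 3 adipocyte genes from the library labelled knockout 2 outnumbered the 115, 18 and 25 from the other libraries. Nuclei with all 10 progenitor genes numbered 52, of which 46 came from the library labelled knockout 2, and had a median of 3648 UMIs against 938 at 3 genes.

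The gated nuclei split into 6 sub-clusters when grouped without the 27 gate genes. Sub-cluster 1 was the largest, with 1206 nuclei or 51.0%, and was led by the predicted genes Gm16263, Gm21738 and Gm10801, by Col5a3 at 292 CPM against 93.0 CPM in the rest, and by Srgap1, a GTPase regulator, at 559 against 214 CPM. Sub-cluster 0 held 505 nuclei (21.4%) and was led by Igfbp3, a carrier of insulin-like growth factors, at 602 against 60.2 CPM, and by Fmo2, a flavin monooxygenase, at 785 against 109.6 CPM. Galnt15, an enzyme of O-glycosylation, the gate gene Fam13a and Sntg1 followed, with Galnt15 at 469 against 80.3 CPM. Sub-cluster 4 held 294 nuclei (12.4%) and was led by Chrm2, a muscarinic acetylcholine receptor, at 342 against 48.6 CPM, and by Hmcn1, a matrix protein of the fibulin family, at 2154 against 337 CPM. Gria1, a glutamate receptor subunit, Mmp16, a membrane metalloproteinase, and Pcdh9, a protocadherin, followed, with Gria1 at 349 against 50.2 CPM. It also had the highest Lama2, at 7290.1 CPM, and Dcn, at 5007 CPM, of the 6. These genes defined the sub-clusters and were not tested.

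The leading genes of sub-clusters 3 and 5 went against the label, and sub-cluster 2 had some progenitor genes and not others. Sub-cluster 3 (172 nuclei, 7.28%) was led by Gm4759, Mir142hg, Gimap4, AC140209.1 and Dock2 and held further leukocyte genes, with Ptprc, the common leukocyte phosphatase, at 1028 against 53.6 CPM, and Dock2 at 1031 against 47.3 CPM. Sub-cluster 5 (89 nuclei, 3.77%) was led by Ccdc129, Ltf, Clca3a2, Btn1a1 and Csn3, several of them genes of milk-producing epithelium, with the casein gene Csn3 at 987 against 34.2 CPM and the lactoferrin gene Ltf at 902 against 19.4 CPM. Sub-cluster 2 (97 nuclei, 4.10%) was led by Gm16685, Serpina10, Tcerg1l, Stmn2 and Csmd1, with Csmd1 at 26332 against 344 CPM and Pcdh15 at 8901 against 130.5 CPM. Its Lama2 was 31.9 CPM, against 3301 CPM in sub-cluster 1, and its Slit3 was 184 CPM against 3421 CPM. Its Cdh11, Ddr2 and Pdgfra were 627, 641 and 404 CPM, near the 567, 660.4 and 441 CPM pooled over all gated nuclei. Its Dcn and Ebf1 were 836 and 2084 CPM, against 2425 and 2990.0 CPM over all gated nuclei. What these nuclei are was not tested.

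The 4 libraries filled the sub-clusters unequally. Sub-cluster 0 took 62.0% of the gated nuclei of the library labelled WT 1, and 10.1%, 4.91% and 2.59% of the others. Sub-cluster 1 took 18.4%, 65.2%, 79.1% and 55.1%. Sub-cluster 4 took 4.50%, 17.9%, 7.36% and 20.2%, and sub-cluster 3 took 6.24%, 2.36%, 2.45% and 12.9%. The library labelled WT 1 stood apart in sub-clusters 0 and 1. Both libraries labelled WT were above both labelled knockout in sub-cluster 0, and the labelled groups overlapped in sub-cluster 1. Whether sub-cluster 0 is a kind of nucleus or a trait of the library labelled WT 1 was not tested.

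**Figure D2:**
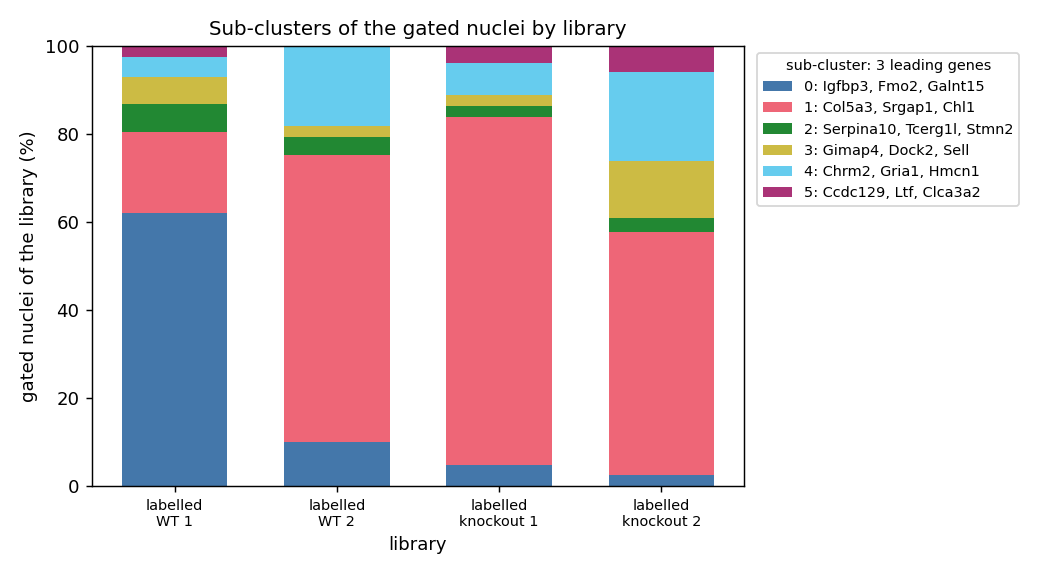
Makeup of the gated nuclei of each library (horizontal axis) as percent of its gated nuclei (vertical axis), stacked by sub-cluster, with 3 leading genes of each sub-cluster, predicted and gate genes left out, in the key. Sub-cluster 0 fills 62.0% of the bar of the library labelled WT 1 and 2.59% of that labelled knockout 2.

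The share of gated nuclei did not separate the labelled groups. Gated nuclei made up 4.44%, 4.44%, 4.42% and 5.34% of kept nuclei. Their 95% Wilson intervals, which cover counting error only, were 4.12 to 4.77%, 3.97 to 4.96%, 4.07 to 4.80% and 5.00 to 5.70%. The library labelled knockout 2 was above the other 3, which lay within 0.1 percentage points of each other. The mean was 4.44% ± 0.003 (SD, n = 2) in libraries labelled WT and 4.88% ± 0.65 (SD, n = 2) in those labelled knockout, and the exact two-sided permutation p was 1, where 0.333 is the smallest p that 2 against 2 libraries allow. The difference of 0.44 percentage points was -0.018 without the library labelled knockout 2. Thinned to 500 UMIs before gating, the shares were 3.59%, 3.41%, 3.44% and 5.89%. Without sub-clusters 2, 3 and 5 they were 3.77%, 4.14%, 4.04% and 4.15%. Fewer nuclei of a kind and less progenitor RNA per nucleus cannot be told apart by a gate on detected genes.

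Among all progenitor nuclei, gated or Pi16-type, the gated ones made up 59.9%, 55.3%, 82.6% and 60.1%. The library labelled knockout 1 stood apart, and labelled knockout 2 was close to labelled WT 1, with overlapping Wilson intervals (57.5 to 62.6% and 57.0 to 62.7%), and the exact permutation p was 0.333, the smallest possible. The high value of the library labelled knockout 1 went with few Pi16-type nuclei, 112 against 462, 239 and 563. After thinning to 500 UMIs the shares were 69.0%, 72.5%, 89.6% and 79.1%, again with p = 0.333 in the exact permutation test.

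**Figure D3:**
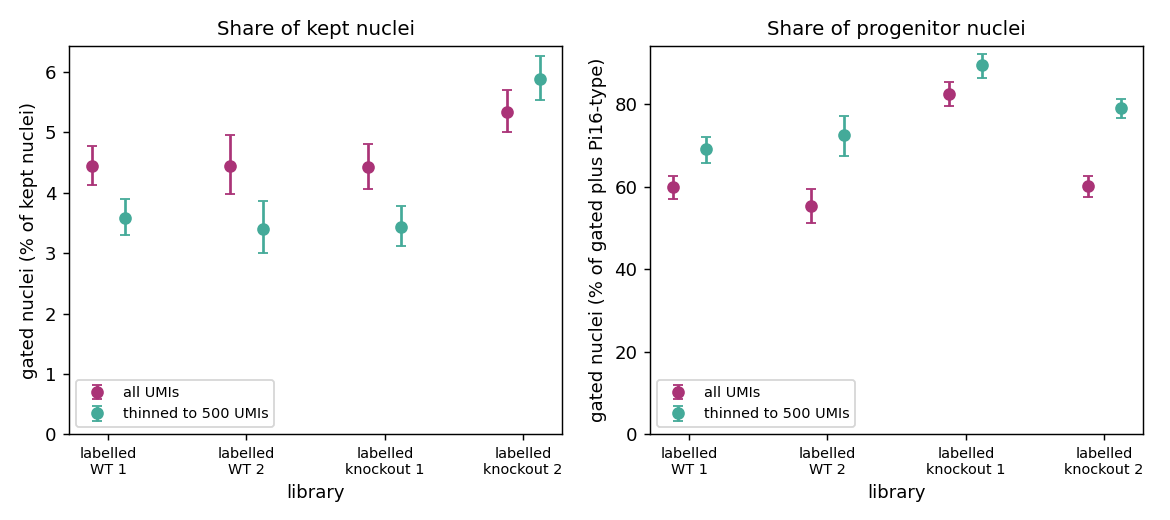
Gated nuclei per library (horizontal axis) as percent of kept nuclei (left, vertical axis) and as percent of gated plus Pi16-type nuclei (right, vertical axis), with all UMIs and thinned to 500 UMIs. Points are single libraries and bars their 95% Wilson intervals. The library labelled knockout 2 is highest on the left, at 5.34% with all UMIs, and labelled knockout 1 is highest on the right, at 82.6%.

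Between the labelled groups, 2 genes differed in the gated nuclei: the predicted gene Gm47283 was higher and Sntg1 was lower in the libraries labelled knockout. These were 2 of the 10015 genes tested outside the gate genes (0.02%) at an adjusted p under 0.05 in edgeR's quasi-likelihood test. The labelled groups did not overlap for 31.1% of the genes (15.4% higher and 15.7% lower), and 4.2% had an unadjusted p under 0.05. DESeq2 called 8 genes. On simulated data the edgeR test called 26% of genes given a log2 difference of 1, so few calls do not mean few differences. A fit without 1 library leaves a labelled group with no replicate, so passing in such a fit is not read as support.

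Gm47283 (chromosome Y, positions 90784738 to 90816464, plus strand, GRCm38) stood at 36.5, 25.2, 3217 and 1356 CPM in the gated nuclei. Both libraries labelled knockout were far above both labelled WT, with a log2 difference of 6.15 ± 0.50 (SE) and an adjusted p of 6.19e-04. It also passed the test in the Pi16-type gate (6.13 ± 0.51, adjusted p = 6.49e-05) and the adipocyte gate (5.58 ± 0.43, adjusted p = 4.88e-05). Lymphocyte-marker nuclei held 54.8, 47.2, 3549 and 2650.5 CPM of it without normalisation by TMM. It was higher in the libraries labelled knockout in each set of nuclei examined. The symbol names a predicted gene, and it is given here after its value was seen. Whether the position of Gm47283 on chromosome Y bears on this difference was not tested. The position is not read here as a mark of the sex of the mice.

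Sntg1 encodes gamma-1 syntrophin, a scaffold protein of the dystrophin complex, and lies on chromosome 1 at positions 8361475 to 9299878, minus strand, GRCm38. It stood at 2021, 2002, 459 and 414 CPM. The 2 libraries of each labelled group lay close together and the groups did not overlap, with a log2 difference of -2.21 ± 0.27 (SE) and an adjusted p of 0.0246. Within sub-cluster 0, mostly of the library labelled WT 1, it stood without TMM at 2483, 3185, 1538 and 1751 CPM. Within sub-cluster 1 it stood at 1693, 1799, 485 and 573 CPM, and within sub-cluster 4 at 1505, 1855, 136 and 297 CPM. The libraries labelled knockout were below both others in each. Without sub-clusters 3 and 5 the log2 difference was -2.04 and the adjusted p 0.227. The alternatives counted next include fits without 1 library, which leave a labelled group with no replicate. Sntg1 passed under 12 of 19 alternatives, with adjusted p up to 0.272.

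Outside the gated nuclei, Sntg1 stood at 6343, 2591, 742 and 1753 CPM in the Pi16-type gate, with a log2 difference of -1.82 ± 0.49 (SE) and an adjusted p of 0.285. In the adipocyte gate it stood at 115, 97.6, 105 and 115 CPM, with a log2 difference of 0.04 ± 0.31. The test of the difference between gated and adipocyte nuclei passed for Sntg1, at -2.24 ± 0.30 (SE) and an adjusted p of 0.00238. That between gated and Pi16-type nuclei was -0.41 ± 0.83 with an adjusted p of 1.

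**Figure D4:**
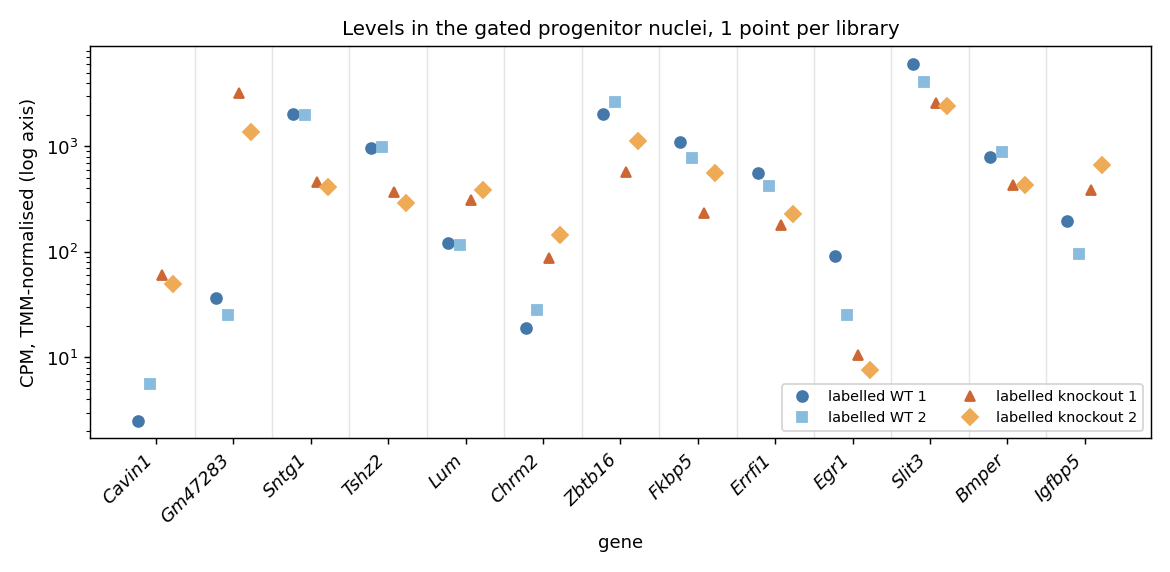
Level in the gated nuclei of each library (vertical axis, TMM-normalised CPM on a log axis) for 13 genes named in the text (horizontal axis). Each point is 1 library, with circles and squares for those labelled WT and triangles and diamonds for those labelled knockout. Cavin1 stands at 60.2 and 49.3 CPM in the libraries labelled knockout, and Sntg1 at 2021 and 2002 CPM in those labelled WT.

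The next genes by p did not pass the test, and their values are given as measured. Tshz2, a zinc-finger homeobox factor, stood at 958, 986, 368 and 288 CPM (log2 difference -1.57 ± 0.27 SE, adjusted p = 0.176). Lum, the collagen-binding proteoglycan lumican, stood at 122, 118, 309.9 and 389 CPM (1.55 ± 0.27, adjusted p = 0.176). Both genes kept the labelled groups apart. Chrm2 stood at 18.9, 28.0, 86.8 and 146 CPM (2.40 ± 0.42, adjusted p = 0.176). It led sub-cluster 4, and within sub-cluster 4 it stood at 51.9, 81.8, 204 and 432 CPM without TMM. Plcxd3, a phospholipase-like protein, stood at 164, 75.6, 26.6 and 19.5 CPM. Within sub-cluster 2, Plcxd3 had 58, 2, 0 and 19 UMIs. There it stood at 475, 81.0, 0 and 180 CPM without TMM, and the labelled groups overlapped. Prg4, the lubricating proteoglycan 4, stood at 71.8, 22.4, 3.54 and 0.542 CPM in the gated nuclei.

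Erbb4, Clca3a2 and Ltf completed the 10 genes of smallest p. Erbb4, a neuregulin receptor, stood at 78.1, 70.0, 191 and 237 CPM, Clca3a2 at 10.1, 19.6, 77.9 and 68.3 CPM and Ltf at 27.7, 5.6, 90.3 and 128 CPM. All 3 were higher in both libraries labelled knockout and did not pass the test, with adjusted p of 0.27, 0.35 and 0.354. All 3 were also highest in sub-cluster 5, at 1209, 518 and 902 CPM. Sub-cluster 5 made up 2.47%, 0.338%, 3.77% and 6.01% of the gated nuclei of the 4 libraries.

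Gene lists are described by counts of their tested members. No member of any list passed the test, against 0.02% of all genes. Each count of members whose labelled groups did not overlap reads against 15.4% of all genes higher and 15.7% lower, and each median against a median log2 difference of -0.01 over all genes. Genes whose reads another copy could share, such as the ribosomal proteins with their pseudogenes, are uncertain.

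Among matrix genes, 18 of 20 further collagen chains were tested and 12 were above 0, with a median of 0.12. Groups did not overlap for 4 higher and 1 lower. Col5a3, a minor fibrillar collagen chain, was the highest, at 81.9, 106, 365 and 198 CPM and a log2 difference of 1.58 ± 0.35 (SE, adjusted p = 0.388). Col5a3 passed the test in the Pi16-type gate, at 2.96 ± 0.47 (adjusted p = 0.0231). Col6a1, which forms beaded filaments, stood at 76.8, 106, 131 and 155 CPM. The most abundant further chains were Col5a2, which joins collagen I fibrils, at 681, 1333, 892 and 999 CPM (-0.08 ± 0.33), and Col4a1, of basement membranes, at 636, 694, 947 and 504 CPM (0.12 ± 0.32).

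Of 31 tested proteoglycans and glycoproteins, 18 were above 0, 6 did not overlap higher and 2 lower, and the median was 0.07. Sparc, a collagen chaperone, stood at 213, 190.4, 319 and 481 CPM (0.99 ± 0.28, adjusted p = 0.798). The most abundant were Lamc1, a laminin chain, at 644, 526, 600.3 and 545 CPM (-0.04 ± 0.26), and Efemp1, a fibulin, at 402, 515, 519 and 579.8 CPM (0.27 ± 0.26). Lum passed in the Pi16-type gate, at 2.16 ± 0.34 (adjusted p = 0.0231).

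Enzymes that remodel the matrix were spread on both sides of 0. Of 29 tested, 18 were above 0, with 9 not overlapping higher, 4 lower and a median of 0.06. The most abundant was Adamts12, a metalloproteinase, at 3043, 4130.2, 2638 and 2629.7 CPM (-0.44 ± 0.29 SE, adjusted p = 1). Loxl2, which crosslinks collagen, stood at 23.9, 28.0, 35.4 and 67.7 CPM (1.06 ± 0.47). Adamtsl1, a matrix protein related to these enzymes, stood at 909, 1033, 1055 and 1024 CPM (0.10 ± 0.26).

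TGF-beta and BMP genes lay on both sides of 0. Of 26 tested, 12 were above 0, with 3 not overlapping higher, 6 lower and a median of -0.07. Bmper, a secreted BMP-binding protein, stood at 787, 888, 430.3 and 431 CPM (-0.96 ± 0.26 SE, adjusted p = 0.619), and Tgfbr3, a co-receptor, at 1334, 1226, 758 and 773 CPM (-0.74 ± 0.26, adjusted p = 0.99). In both, the libraries of each labelled group lay close together. The ligand Bmp4 stood at 37.8, 44.8, 19.5 and 16.8 CPM, Ltbp1, which stores TGF-beta in the matrix, at 806, 686, 423 and 361 CPM, and the activin antagonist Fst at 30.2, 67.2, 136 and 124 CPM.

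Wnt genes held a few members with wide separation. Of 21 tested Wnt genes, 12 were above 0, with 7 not overlapping higher, 3 lower and a median of 0.04. The ligand Wnt5a stood at 8.82, 2.8, 37.2 and 17.3 CPM (1.95 ± 0.76 SE), the receptor Fzd1 at 29.0, 14.0, 53.1 and 59.6 CPM and the nuclear effector Lef1 at 25.2, 19.6, 53.1 and 63.4 CPM. The most abundant were Ror1, a Wnt5a receptor, at 1060.4, 1526, 836 and 1041 CPM (-0.46 ± 0.29), and Tcf7l2, a nuclear effector, at 666, 739, 811 and 695 CPM (0.10 ± 0.26).

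Of 26 tested growth factor genes, 15 were above 0, with 7 not overlapping higher, 2 lower and a median of 0.13. Igfbp5, which binds insulin-like growth factors, stood at 198, 95.2, 386 and 664 CPM (1.81 ± 0.37, adjusted p = 0.388). Igfbp3 stood at 540.3, 28.0, 35.4 and 44.4 CPM, so the library labelled WT 1 alone set its difference of -2.85. The lymphangiogenic factor Vegfd stood at 223, 109, 72.6 and 56.4 CPM, and Egfr, the receptor of epidermal growth factor, at 2428, 3455, 1742 and 2140.4 CPM. Fgfr2, a fibroblast growth factor receptor, stood at 419, 557, 678 and 381 CPM (0.11 ± 0.32).

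Adipogenic genes were balanced. Of 25 tested, 14 were above 0, with 4 not overlapping higher, 5 lower and a median of 0.12. Ebf1 stood at 3910.3, 3058, 2962 and 2852 CPM and Pparg, the master regulator of adipocyte differentiation, at 329, 218, 345 and 324 CPM. The labelled groups overlapped for Pparg. Lpl, the lipoprotein lipase, stood at 821, 524, 398 and 778 CPM (-0.19 ± 0.35). Rxra, the partner receptor of Pparg, stood at 65.5, 89.6, 39.0 and 31.4 CPM (-1.14 ± 0.39 SE, adjusted p = 0.928). Of 11 tested interstitial progenitor genes outside the gate, 5 were above 0 and the median was -0.02. The most abundant, Heg1 and the transcription factor Creb5, stood at 462, 389, 301 and 408 CPM and 496, 423, 278 and 279 CPM.

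Of 11 tested genes of CD142-positive regulatory progenitors, 7 were above 0, and Fmo2 stood at 594, 224, 63.7 and 117 CPM (-2.16 ± 0.46, adjusted p = 0.388). F3, which encodes CD142 itself, stood at 113, 84.0, 168 and 47.1 CPM, with overlapping groups. Fmo2 led sub-cluster 0, which was mostly nuclei of the library labelled WT 1.

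Complement and cytokine genes had medians below 0. Of 11 tested complement genes, 4 were above 0, none did not overlap higher, 2 did not overlap lower and the median was -0.45. C7, a component of the membrane attack complex, stood at 366, 22.4, 17.7 and 7.59 CPM. In sub-cluster 2 its UMIs were 228, 0, 0 and 8, so nearly all came from the library labelled WT 1, and in sub-cluster 0 they were 59, 8, 0 and 0. C1qtnf7, a C1q-related adipokine, stood at 412, 196, 197 and 147 CPM (-0.86 ± 0.34). Of 21 tested cytokine genes, 5 were above 0, with 2 not overlapping higher, 7 lower and a median of -0.35. Il1r1, the interleukin-1 receptor, stood at 637, 484, 418 and 315 CPM (-0.62 ± 0.28 SE, adjusted p = 1), and Ccl11, the eosinophil attractant eotaxin, at 50.4, 22.4, 86.8 and 74.8 CPM (1.05 ± 0.42). Nfkb1, a subunit of NF-kappaB, stood at 370.3, 286, 274 and 353 CPM (-0.07 ± 0.27).

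Glucocorticoid-induced genes lay mostly below 0 in the libraries labelled knockout. This list was chosen with earlier results of these libraries known. Of 20 genes, 18 were tested, 2 were above 0, none did not overlap higher, 6 did not overlap lower and the median was -0.54. Zbtb16, a transcriptional repressor, stood at 2038, 2657, 567 and 1118 CPM (-1.47 ± 0.35 SE, adjusted p = 0.445). Fkbp5, a co-chaperone that dampens the glucocorticoid receptor, stood at 1096, 778, 236 and 559.7 CPM (-1.22 ± 0.38, adjusted p = 0.906). Errfi1, an inhibitor of the epidermal growth factor receptor, stood at 564, 426, 181 and 229 CPM (-1.27 ± 0.27, adjusted p = 0.388), and Ddit4, an inhibitor of mTOR signalling, at 42.8, 53.2, 7.08 and 15.2 CPM (-1.95 ± 0.53). In these 4 the groups did not overlap. Sgk1, a kinase gene, stood at 169, 165, 165 and 113 CPM (-0.29 ± 0.29).

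These 4 genes also stood lower in both libraries labelled knockout in the other gates. So did 12.9% of all genes tested in the adipocyte gate, and the share for the Pi16-type gate is not given here. All gates share the same 4 libraries, so the other gates are not a separate test of these genes. Errfi1 passed the test in the Pi16-type gate at -2.02 ± 0.36 (adjusted p = 0.0446), as 0.156% of all genes tested there did. Fkbp5 stood at 1124, 1023, 282 and 586 CPM in the Pi16-type gate and 1520.1, 946, 87.7 and 335 CPM in the adipocyte gate, and Zbtb16 at 2090.3, 3165, 887 and 1473 and 1695, 2759, 711 and 1213 CPM. Within sub-cluster 1 and without TMM, Fkbp5 stood at 855, 743, 234 and 603 CPM and Zbtb16 at 1902, 2261, 582 and 1483 CPM. The labelled groups stayed apart for both genes within this sub-cluster. Time of sampling and handling of the animals are not given in the labels.

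Promoters of 3 genes of the list are shown. For Fkbp5 and Ddit4 the labelled groups did not overlap, whereas the difference of Sgk1 was small, and Sgk1 is shown for its letters. They run from 250 bases before to 50 bases after a start site in RefSeq on GRCm38.p6, 5′ to 3′, with Sgk1 at chr10:21993640-21993939 on the plus strand, Fkbp5 at chr17:28486100-28486399 and Ddit4 at chr10:59951721-59952020 on the minus strand. Capitals mark AGAACA on either strand, the hexamer bound by the glucocorticoid receptor. Its palindrome is AGAACA followed, across 3 bases of any kind, by its reverse complement TGTTCT.
Sgk1: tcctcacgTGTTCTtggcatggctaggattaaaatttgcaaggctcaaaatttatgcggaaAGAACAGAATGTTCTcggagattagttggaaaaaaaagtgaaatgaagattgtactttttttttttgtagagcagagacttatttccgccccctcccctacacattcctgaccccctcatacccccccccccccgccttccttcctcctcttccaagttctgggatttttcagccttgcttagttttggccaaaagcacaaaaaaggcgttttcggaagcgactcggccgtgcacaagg
Fkbp5: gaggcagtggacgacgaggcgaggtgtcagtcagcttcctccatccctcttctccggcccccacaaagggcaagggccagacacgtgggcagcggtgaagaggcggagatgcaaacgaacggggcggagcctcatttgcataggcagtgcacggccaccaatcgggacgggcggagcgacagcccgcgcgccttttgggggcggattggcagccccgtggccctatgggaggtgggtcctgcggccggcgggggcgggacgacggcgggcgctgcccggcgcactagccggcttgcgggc
Ddit4: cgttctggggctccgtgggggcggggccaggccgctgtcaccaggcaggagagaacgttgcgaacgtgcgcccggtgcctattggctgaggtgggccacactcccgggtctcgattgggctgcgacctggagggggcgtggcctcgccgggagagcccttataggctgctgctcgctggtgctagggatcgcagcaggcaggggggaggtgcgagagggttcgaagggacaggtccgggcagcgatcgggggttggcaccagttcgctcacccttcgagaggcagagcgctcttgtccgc
Of the 6 Sgk1 windows, this one is shown because it holds the palindrome. It held 1 palindrome and 3 hexamers, counting both of the palindrome. The other 2 windows held neither. The palindrome was found in 3 of 32851 RefSeq promoters (0.009%) and the hexamer in 18.974%. Of the 20 listed genes, 18 had a promoter in the table, and 4 of their 30 windows (13.3%) held the hexamer, of which 3 were Sgk1's and 1 was Tsc22d3's. The log2 difference of Sgk1 itself was -0.29 ± 0.29 (SE). A match describes letters and not binding.

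Immediate early genes had the lowest median of the lists. Of 21 immediate early and heat shock genes, 10 were tested, 2 were above 0, 2 did not overlap higher, 5 did not overlap lower and the median was -0.89. Egr1, an early growth response factor, stood at 90.7, 25.2, 10.6 and 7.59 CPM (-2.81 ± 0.63 SE, adjusted p = 0.388). Junb stood at 50.4, 42.0, 17.7 and 16.8 CPM, Fos at 52.9, 25.2, 23.0 and 10.3 CPM and Jun at 78.1, 86.8, 31.9 and 53.1 CPM. The labelled groups did not overlap in these 4. Hsp90aa1, a heat shock chaperone, stood at 50.4, 25.2, 54.9 and 56.4 CPM (0.49 ± 0.42). Pooled over libraries, Egr1 stood at 92.4 CPM in sub-cluster 0 and 15.8 CPM in sub-cluster 1. Of the 505 nuclei of sub-cluster 0, 427 came from the library labelled WT 1, so sub-cluster and library cannot be told apart here.

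Hormone receptors, guidance genes, caveola genes and housekeeping lists completed the set. Of 27 tested receptors, 15 were above 0, with 8 not overlapping higher, 2 lower and a median of 0.07. Pgr, the progesterone receptor, stood at 5.04, 11.2, 54.9 and 21.7 CPM, and Adrb3, the adipocyte beta-adrenergic receptor, at 3.78, 0, 33.6 and 35.8 CPM. The most abundant were Lpar1, a lysophosphatidic acid receptor, at 510.0, 437, 212 and 310.5 CPM (-0.85 ± 0.28), and Nr3c2, the mineralocorticoid receptor, at 407, 277, 333 and 378 CPM (0.05 ± 0.27). Of 38 tested guidance and adhesion genes, 17 were above 0, with 7 not overlapping higher, 6 lower and a median of -0.11. Slit3 stood at 6076, 4043, 2566 and 2443 CPM (-1.02 ± 0.31 SE, adjusted p = 0.861), and both libraries labelled WT were above both labelled knockout. Lsamp, an adhesion molecule, stood at 215, 1025, 834 and 876 CPM (0.48 ± 0.61).

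Of 8 tested caveola genes, 5 were above 0, and Cavin1 was the furthest. Cav1, the main caveolin of these cells, stood at 66.7, 67.2, 37.2 and 106 CPM and Cavin2 at 44.1, 8.4, 28.3 and 44.4 CPM. The most abundant of the list were Bmpr2, a BMP receptor, at 256, 171, 163 and 231 CPM, and Pacsin2, a membrane-bending protein, at 93.2, 126, 126 and 87.8 CPM.

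Of 10 tested contractile genes, 5 were above 0 and the median was -0.02. Cald1, an actin-binding protein, stood at 525, 459, 537 and 409 CPM (-0.07 ± 0.27), and Vcl, of focal adhesions, at 135, 151, 133 and 124 CPM (-0.15 ± 0.28). Of 24 tested ribosomal protein genes, 19 were above 0, with 9 not overlapping higher, 1 lower and a median of 0.53. Rplp1 stood at 90.7, 58.8, 112 and 174 CPM (0.92 ± 0.34), and Rps24 at 132, 98.0, 174 and 178 CPM (0.59 ± 0.28). Of 8 tested mitochondrially encoded genes, 3 were above 0, and the median was -0.13. The genes mt-Nd1 and mt-Cytb stood at 1004, 997, 946 and 833 CPM and 836, 767, 678 and 633 CPM. The median mitochondrial share of the gated nuclei was 1.17%, 0.891%, 1.72% and 1.49% of UMIs.

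**Figure D5:**
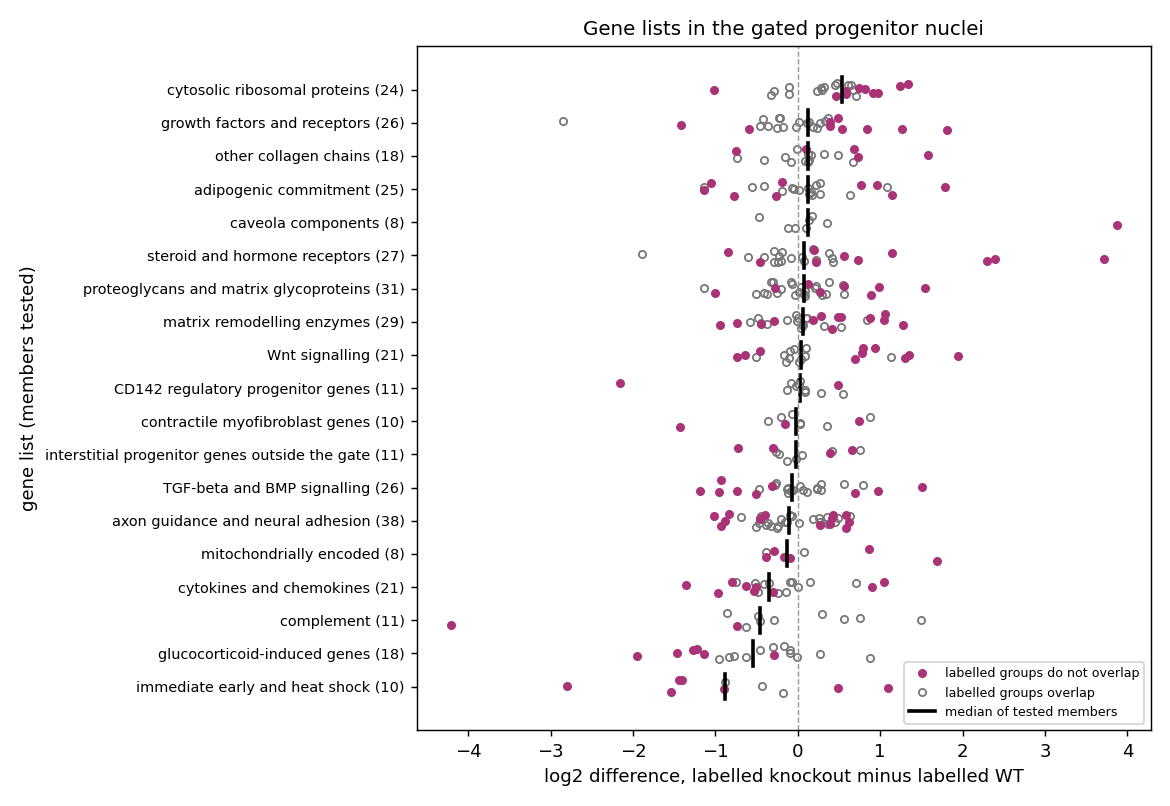
Log2 difference in the gated nuclei, labelled knockout minus labelled WT (horizontal axis), of the tested members of 19 gene lists (vertical axis, with the number tested). Filled points are genes whose labelled groups do not overlap, open points overlap, and black bars are list medians. Medians run from -0.89 for immediate early genes to 0.53 for ribosomal proteins, and no member passed the test.

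Markers of other cell types also differed in level between the libraries, and none passed the test. All 5 tested luminal mammary epithelial markers of 10 listed were above 0 with groups that did not overlap, and their median was 1.53. Their summed level over all 10 was 481, 192, 896 and 906 CPM, of which Trps1 alone made up 77.3%. Summed levels in this paragraph are without TMM. At least 2 of them were found in 2.32%, 0.676%, 3.21% and 8.37% of gated nuclei. Adipocyte markers outside the gate summed to 496, 285, 409 and 681 CPM, with 7 of 8 tested above 0. T and NK cell markers summed to 268, 204, 260 and 501 CPM. Blood vascular endothelial markers summed to 366, 416, 477 and 360 CPM, with 3 of 8 tested above 0. B cell markers summed to 119, 184, 194 and 472 CPM, and milk-protein genes to 154, 20.2, 150.2 and 328 CPM. Plasma cell markers summed to 49.5, 32.8, 68.4 and 427 CPM, and of these lists Igkc, a plasma cell marker, was the 1 gene at 0. The part of these nuclei in the results was not tested beyond the fits that leave them out. At least 2 markers of an adipocyte were found in 8.0%, 3.4%, 4.2% and 28.7% of the gated nuclei. Leaving out the 811 gated nuclei (34.3%) with at least 2 markers of 1 other cell type gave 6 calls in place of 2.

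The labelled difference itself differed between gated and Pi16-type nuclei for 42 of 10714 genes (0.392%), tested as an interaction with library as a block. It was more negative in the gated nuclei for 30 genes (0.28%) and more positive for 12 (0.112%), and 27 of the 41 genes fitted in both gates had opposite signs in them. The genes named here were chosen after their values were seen. Each gene's own difference in the gated nuclei did not pass the test. The Pi16-type sums hold 725800, 445067, 155612 and 1520546 UMIs, so the library labelled knockout 1 is thin there. Exactly 2 Pi16-type genes, the fewest that gate allows, were found in 92 of 462, 50 of 239, 62 of 112 and 173 of 563 Pi16-type nuclei. The Pi16-type nuclei of the library labelled knockout 1 thus lay mostly at the threshold next to the gated nuclei. The part of this makeup in the interactions was not tested.

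Secreted regulators lay on both sides. Bmper stood at 787, 888, 430.3 and 431 CPM in the gated nuclei and 195, 141, 454 and 333 CPM in the Pi16-type gate, with an interaction of -2.07 ± 0.29 (SE, adjusted p = 3.91e-07). It was higher in gated than in Pi16-type nuclei in the libraries labelled WT, and the gap was smaller or absent in those labelled knockout. Fgf10, a growth factor of preadipocytes, stood at 413, 764, 459 and 392 and 126, 74.4, 433 and 422 CPM (-2.40 ± 0.34, adjusted p = 1.68e-05), and itself passed in the Pi16-type gate at 2.07 ± 0.34. Igfbp5 stood at 198, 95.2, 386 and 664 and 1785, 829, 797 and 1489 CPM (2.08 ± 0.27, adjusted p = 3.82e-08). Igfbp5 reached 2037 CPM in sub-cluster 5, and without sub-clusters 2, 3 and 5 its interaction was 1.99.

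Matrix genes and enzymes gave 4 more. Adam12, a membrane metalloproteinase, stood at 1263, 2319, 1165 and 1277 CPM in the gated nuclei and 124, 400.1, 735 and 695 CPM in the Pi16-type gate (-2.09 ± 0.26 SE, adjusted p = 2.68e-08). Adamts12 stood at 3043, 4130.2, 2638 and 2629.7 and 968, 1129, 1876 and 1988 CPM (-1.27 ± 0.22, adjusted p = 2.12e-04). Col15a1, a basement-membrane collagen of committed preadipocytes in mice, stood at 139.8, 367, 427 and 398 and 20.7, 87.2, 460.5 and 253 CPM (-1.97 ± 0.35, adjusted p = 2.27e-04). In each of these 3 genes, the Pi16-type level was lower in both libraries labelled WT than in both labelled knockout, as it was for 16.9% of all genes tested in that gate. Lpl stood at 821, 524, 398 and 778 and 235, 94.9, 316 and 601 CPM (-1.67 ± 0.29, adjusted p = 1.25e-04). Of the matrix genes, Col4a1 (interaction -1.27 ± 0.27, adjusted p = 0.00449) also passed, as did Egfr (-0.96 ± 0.22, adjusted p = 0.0152).

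Cxcl13, a B cell attractant, stood at 361 CPM in sub-cluster 2 and 6.39 CPM in the rest of the gated nuclei. Its interaction rested on 1 library. Its UMIs in the Pi16-type gate were 247, 0, 0 and 11, and the interaction of 4.53 ± 0.74 (adjusted p = 2.89e-04) was -3.48 without the library labelled WT 1. Leaving out 1 library gave 43, 39, 16 and 34 calls, of which 22, 24, 13 and 18 were among the 42. Without sub-clusters 2, 3 and 5, 18 genes were called, of which 16 were among the 42. Adam12, Igfbp5, Bmper, Fgf10 and Lpl passed in the fit without sub-clusters 2, 3 and 5. The fits without 1 library leave a labelled group with no replicate, and their calls are not read as support.

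Against the adipocyte gate, 14 of 16052 genes (0.0872%) differed in the labelled difference, 10 above 0 (0.0623%) and 4 below (0.0249%). Enpp2, which encodes autotaxin, stood at 492, 507, 506 and 659 CPM in the gated nuclei and 1152, 693, 181 and 211 CPM in the adipocyte gate, with an interaction of 2.43 ± 0.32 (SE, adjusted p = 0.00238). Its gated levels were close together, and the adipocyte levels were lower in both libraries labelled knockout, as they were for 12.9% of all genes tested there. Uap1, an enzyme of amino sugar synthesis, stood at 89.4, 67.2, 92.1 and 78.6 and 376, 354, 123 and 71.7 CPM (2.10 ± 0.35, adjusted p = 0.0227). Gnal, a G protein subunit, stood at 22.7, 16.8, 28.3 and 26.0 and 169, 119, 36.8 and 19.9 CPM (2.95 ± 0.46, adjusted p = 0.0141). Tshz2 stood at 282, 403, 451 and 380.4 CPM in the adipocyte gate, and its interaction was -1.87 ± 0.31 (adjusted p = 0.0227).

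Syn2 and Ccdc129 also passed against the adipocyte gate, at 2.90 ± 0.50 and 1.96 ± 0.36. Ccdc129 stood at 139.8, 16.8, 331 and 419 CPM in the gated nuclei and led sub-cluster 5, and without sub-clusters 2, 3 and 5 its interaction was 0.47. In that fit 2 genes were called, Enpp2 and Sntg1. Fits without 1 library leave a labelled group with no replicate here too, and their calls are not read as support.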

How the data were processed

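The authors deposited raw UMI counts per gene and barcode for 4 single-nucleus libraries, and the lowest total in the files is 500 UMIs per barcode. Per the submitters' processing notes, GRCm38 (mm10) and Seurat 4.3.0 were used; no source used here names the aligner. Chemistry and tissue are per the labels' protocols.

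Barcodes with at least 300 genes and at most 10% mitochondrial UMIs were kept. Doublets were not removed; alternatives left out nuclei with 2 markers of another type, or the 5% with the most UMIs. Counts of gated nuclei were summed per library and tested with edgeR 4.0.16 (R 4.3.3; filterByExpr, TMM, robust quasi-likelihood F test, two-sided, Benjamini-Hochberg over all genes tested), checked on simulated data. In the simulated data, changes were put only into more abundant genes. The gated fit recovered 13 of 50 genes at a log2 difference of 1 and 48 of 50 at 2, and called 13 of 9653 unchanged genes. At a log2 difference of 1, the interaction fits recovered 1 of 50 (Pi16-type) and 2 of 50 (adipocyte). At 2 they recovered 17 and 23 of 50. DESeq2 1.42.0 was an alternative. The 27 gate genes stayed in the fit and out of counts of calls. Sub-clusters came from scanpy 1.11.5 (2000 variable genes, 30 components, 15 neighbours, Leiden resolution 0.5). Single values were compared with an exact permutation test over libraries.

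Members and lists were chosen with earlier results of these data known. Genes named are Cavin1, called genes, the 10 of smallest p, the 2 most abundant tested members of each list and the 5 leading genes of each sub-cluster by ratio; other list members, the interaction genes and predicted genes were named after their values were seen. Some genes that this rule or the tests named are not reported here. Of the listed symbols, 6 are not among those of the files. Coordinates are from GENCODE M21. Replicate libraries of a group differed by more than sampling noise (chi-square per degree of freedom 5.68 and 6.52). Intervals cover counting error only.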

Additional observations from a re-analysis of the deposited data

Results flagged for a closer look

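A difference between the labelled groups that itself differs between 2 sets of nuclei was singled out by an interaction test in edgeR, with library as a block and adjustment over all genes. Against the Pi16-type gate this held for 42 genes, and against the adipocyte gate for 14 genes. The first set shares its 4 libraries with the gated nuclei, and so does the second.

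Against the Pi16-type gate, the log2 interaction (labelled difference in gated nuclei minus that in the gate) was -2.09 for Adam12, 2.08 for Igfbp5, -2.07 for Bmper, -2.40 for Fgf10 and -1.67 for Lpl. It was -1.27 for Adamts12, -1.97 for Col15a1, 4.53 for Cxcl13, -1.27 for Col4a1 and -0.96 for Egfr. Adamts12 missed the threshold when either library labelled knockout was left out, with an adjusted p of 0.0943 for the first and 0.0947 for the second. Col15a1 missed it without the first (adjusted p = 0.0725), and Cxcl13 stood at -3.48 without the library labelled WT 1. The thin Pi16-type sum of the library labelled knockout 1 enters each of these values. Of its 112 nuclei, 62 held exactly 2 Pi16-type genes, the fewest that gate allows. The part of this library was not tested beyond leaving it out.

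Against the adipocyte gate, the interaction was 2.43 for Enpp2, -2.24 for Sntg1, 2.95 for Gnal and 2.10 for Uap1. It was -1.87 for Tshz2, 2.90 for Syn2 and 1.96 for Ccdc129. Without the library labelled knockout 2, Gnal had an adjusted p of 0.0704 and Uap1 of 0.0622, and without labelled WT 2 Syn2 stood at 1.87 (adjusted p = 0.211). Without sub-clusters 2, 3 and 5 of the gated nuclei, Tshz2 stood at -1.88 (adjusted p = 0.0783) and Ccdc129 at 0.47 (adjusted p = 0.996).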

How the results depend on the processing

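The 2 genes called in the gated nuclei were both called by edgeR with DESeq2's size factors, with at least 4 progenitor genes, with no Pi16-type gene and with at least 1000 UMIs per nucleus. DESeq2 called 8 genes, and a fit with no filter on low counts called 37 of 30850, where the median log2 difference of all genes was 0.15. The thinned gate called 6, nuclei without 2 markers of another type 6, fewer than 2 adipocyte genes 1, and nuclei without the 5% with the most UMIs 1. Chosen after seeing the data, leaving out sub-clusters 3 and 5, or 2, 3 and 5, gave 1 call each, and gated with Pi16-type nuclei gave 2, of which 1 was shared. Leaving out 1 library gave 13 to 104 calls. In each fit with fewer calls than 2, Sntg1 was the one lost, as it was on thinned nuclei, with Pi16-type nuclei added and with the replicate block, and the cause was not tested. Gm47283 passed under all 19 alternatives (log2 difference 5.42 to 6.62), Sntg1 under 12 of 19 (-2.40 to -1.80, adjusted p 1.05e-11 to 0.272) and Cavin1 under 9 of 19 (3.26 to 7.33).

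Deviations of same-numbered libraries from their group means had r = -0.32 over 10040 genes in the gated nuclei. With 2 libraries a group this rests on a single difference per group, so it cannot decide whether the numbers pair the libraries. A replicate block gave 2 calls in the gated nuclei, 1 of them shared, 46 in the Pi16-type gate in place of 13 and 28 in the adipocyte gate in place of 11. The crossed pairing gave 119 calls in the gated nuclei. Leaving out 1 library gave 34 to 94 calls in the Pi16-type gate and 53 to 237 in the adipocyte gate. The interaction against Pi16-type nuclei gave 41 calls with DESeq2's size factors, 16 to 43 without 1 library and 18 without sub-clusters 2, 3 and 5. That against adipocytes gave 24, 32 to 159 and 2. The interaction of Cxcl13 ranged from -3.48 to 9.17 without 1 library. The share difference of 0.44 percentage points was -0.27 with fewer than 2 adipocyte genes, 1.17 after thinning and -0.018 to 0.898 without 1 library.

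Of 1020 values of 65 single genes under alternatives, 862 kept direction and side of the threshold, 68 newly passed, 20 no longer passed and 70 changed sign, all but 1 of the last for genes that did not pass at first. Most of these genes did not pass in the main fit, so keeping their side of the threshold does not show that a call is stable. Without the filter on low counts, the log2 difference was 0.0242 for Col5a2, 0.0352 for Lamc1, 0.0129 for Nfkb1, 0.00393 for Cald1 and 0.0402 for Pacsin2. With the replicate block, the log2 difference was -0.0854 for F3. With at least 4 progenitor genes, the log2 difference was 0.10 for Col5a2, 0.19 for Lamc1, -0.15 for F3 and 0.014 for Cald1. With no Pi16-type gene, the log2 difference was -0.0411 for Nr3c2. With fewer than 2 adipocyte genes, the log2 difference was 0.14 for Cald1 and 0.13 for Bmpr2. With at least 1000 UMIs, the log2 difference was -0.0256 for F3 and 0.0701 for Pacsin2. On nuclei thinned to 500 UMIs, the log2 difference was 0.0743 for Col5a2, 0.13 for Lamc1, 0.12 for Lpl, 0.0436 for Cald1, 0.0142 for Bmpr2 and 0.12 for Pacsin2. Without nuclei with 2 markers of another type, the log2 difference was 0.00888 for Col5a2, 0.040 for Lamc1, -0.00942 for F3, 0.0104 for Cald1 and 0.17 for Pacsin2. Without the 5% deepest nuclei, the log2 difference was 0.000924 for Nfkb1, 0.0493 for Cald1 and 0.00559 for Pacsin2. Without sub-clusters 3 and 5, the log2 difference was 0.11 for Col5a2, 0.10 for Lamc1, 0.0189 for Lpl, -0.0935 for F3 and 0.0384 for Bmpr2. Without sub-clusters 2, 3 and 5, the log2 difference was 0.0907 for Col5a2, 0.0547 for Lamc1, -0.0482 for F3 and 0.11 for Bmpr2. With Pi16-type nuclei added, the log2 difference was 0.0643 for Col5a2, -0.33 for Efemp1, 0.0301 for Adamts12, -0.36 for Adamtsl1, 0.33 for Lpl, 0.0419 for Cald1 and 0.12 for Vcl. With the crossed block, the log2 difference was -0.23 for F3. Leaving out 1 library, it ranged from -0.20 to 0.13 for Lamc1, -0.34 to 0.45 for Fgfr2, -0.79 to 0.22 for Lpl, -0.29 to 0.16 for Nfkb1, -0.26 to 0.0964 for Cald1, -0.25 to 1.97 for Lsamp, -0.43 to 0.24 for Bmpr2, -0.48 to 0.45 for Col5a2, -1.07 to 0.72 for F3, -0.21 to 0.38 for Nr3c2, -0.29 to 0.19 for Pacsin2, -0.38 to 0.49 for Col4a1 and -0.000606 to 0.18 for Tcf7l2. Depth limits genes of few UMIs, such as Cavin1 with 2 UMIs in each library labelled WT.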
